A study of Mus musculus with 4 samples.

Results

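The cytosolic ribosomal proteins of mouse kidney are described here from 105 array probe sets of 49 genes, among 45037 probe sets and 18193 genes in the whole series. A probe set was a member if its single gene symbol was Rpl or Rps followed by a number, or was Rplp0 to Rplp2 or Rpsa. The number could be followed by an optional a, x, y or l and then by an optional digit, as in Rps3a1. A log2 signal in all 4 arrays was also required. The rule used names and not measured values. It took 26 genes of the large subunit and 23 of the small subunit.

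The ribosome of the cytosol translates messenger RNA into protein. Its small subunit decodes the message, and its large subunit joins the amino acids and passes the growing chain through an exit tunnel. Ribosomal protein mRNAs are among the most abundant of a cell, and many of them start with a run of pyrimidines at the 5′ end, the terminal oligopyrimidine tract, through which the kinase complex mTORC1 and the protein Larp1 control their translation and stability. In the kidney, the proximal tubule is the segment that ischemia damages most, and tubule cells that survive enter a phase of repair.

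There were 4 groups, all of male C57Bl/6 mice: mice labelled as Tet2 knockout after ischemia-reperfusion (IR), mice labelled as Tet2 knockout after sham surgery, wild-type mice after IR and wild-type mice after sham surgery. IR was 60 min of renal ischemia and then 24 h of reperfusion. Each group was 1 Affymetrix 3′ expression array of kidney RNA pooled from 3 mice, so mice could not be told apart, no spread between animals could be computed, and no test was made. The labels used here give no age, and do not say how the Tet2 allele was made or in which cells it was deleted.

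The deposited values are log2 signals, with array medians from 6.28 to 6.33. The kidney markers were present: 9 of 9 measured ones, among them Umod, were at or over the signal floor in each array. Tet2, which encodes an enzyme that oxidises methylated cytosine, was read by a pair of probe sets. The first had log2 signals of 8.74 in knockout-labelled IR, 9.87 in knockout-labelled sham, 9.16 in wild-type IR and 9.96 in wild-type sham. The second had 8.60, 10.25, 9.30 and 9.84 in the same order of arrays. Tet2 was thus not clearly lower in the knockout-labelled sham array than in the wild-type one, where the probe sets lie relative to the deletion is not known, and the arrays are called knockout-labelled below. Because whole kidney was measured, fewer cells of a type and less RNA per cell cannot be told apart in any value below.

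Signals under a floor of 5.72 on the log2 scale (52.8 when linear) were set to it, and a gene counted as measured if it reached the floor in an array of the comparison. Of the 49 genes, 46 were at or over the floor in all 4 arrays. Rps16, Rpl39l and Rps20, with mean log2 signals of 3.62, 4.26 and 5.37, were below it in all 4 arrays on the probe set that stood for the gene, although 2 other probe sets of Rps20 with the suffix _x_at, whose probes can bind other transcripts too, had log2 signals between 13.46 and 14.01. Rps29, Rps28 and Rpl38 had the highest mean log2 signals, 14.20, 13.99 and 13.93. Probe sets differ in how well they bind, so these signals do not rank the genes by amount of mRNA.

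Starts of RefSeq promoters (assembly GRCm38.p6) were found for 43 of the 49 genes. The sequences below hold a run of pyrimidines near the annotated start, or lack it, in members whose values are given here or further on. Each spans 20 bases before the annotated start and 10 after it, read 5′ to 3′ on the gene's strand, and capitals mark a run of 6 or more C or T that has a base within 10 of the start.
Rpl12, chr2:32961692-32961721, plus strand: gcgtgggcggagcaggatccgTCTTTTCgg
Rplp2, chr7:141447631-141447660, plus strand: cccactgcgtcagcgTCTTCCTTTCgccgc
Rpl7a, chr2:26910787-26910816, plus strand: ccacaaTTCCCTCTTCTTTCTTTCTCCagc
Rps9, chr7:3704021-3704050, plus strand: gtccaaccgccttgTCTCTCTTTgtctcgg
Rps6, chr4:86857358-86857387, minus strand: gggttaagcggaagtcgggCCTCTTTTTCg
Rps27l, chr9:66946066-66946095, plus strand: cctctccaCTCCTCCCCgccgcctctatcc
Rpsa, chr9:120127746-120127775, plus strand: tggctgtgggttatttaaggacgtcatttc
Rplp0, chr5:115559447-115559476, plus strand: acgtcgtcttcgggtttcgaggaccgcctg
Rpl7a held the longest of these runs, 21 bases, while the longest near the start of Rpsa and of Rplp0 was 5 bases. The marked run of Rps27l ends before the start, so a marked run need not be a terminal oligopyrimidine tract. The first listed start of each gene was used, and whether the mRNA begins there was not tested. Rpl7a had log2 signals of 13.83 in knockout-labelled IR and 13.60 in knockout-labelled sham, and 13.73 in wild-type IR and 13.65 in wild-type sham.

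A run of 6 or more pyrimidines lay near the start of 25 of the 43 ribosomal protein genes (58.1%), against 29.1% of 27025 promoters in the same table. Over all listed starts it was 27 of 51 (52.9%), against 29.2% of 32851. The letters CCGGAAG, a form of the site of ETS transcription factors, were searched on both strands of the 300 bases from 250 before to 50 after the start. They were found in 21 of the 43 genes (48.8%), against 9.12% of all promoters. On the other strand these letters hold CTTCC, so both searches can meet in the same bases. In the knockout-labelled pair the median log2 ratio of IR over sham was 0.32 over 24 measured genes with a pyrimidine run and 0.27 over 17 without, and in wild type it was 0.17 in both. For CCGGAAG it was 0.32 over 20 genes with these letters and 0.27 over 21 without in the knockout-labelled pair, and 0.16 and 0.17 in wild type.

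After IR the ribosomal protein genes were higher as a class in the knockout-labelled pair, by a small amount in most members. The log2 ratio of knockout-labelled IR over knockout-labelled sham was over 0 in 43 of the 46 measured genes, where 48.2% of all 13600 measured genes were over 0. Its median was 0.31, a 1.24-fold higher signal, with quartiles of 0.22 and 0.41, beside a median of -0.02 over all measured genes. Only 2 members, Rpl12 and Rpsa, reached 2-fold higher and 0 reached 2-fold lower, beside 6.06% and 6.89% of all measured genes. At 1.5-fold the members numbered 4 higher and 0 lower, beside 14.6% and 14.5%. Most members thus lay on the same side of 0, and fewer of them passed 1.5-fold or 2-fold than of all measured genes.

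The same direction was seen in wild type with a smaller size. The log2 ratio of wild-type IR over wild-type sham was over 0 in 39 of 46 genes, where 52.5% of 13531 measured genes were over 0, and its median was 0.14, beside 0.02 over all measured genes. Only Rpl12 reached 2-fold higher and 0 reached 2-fold lower, beside 2.06% and 2.18% of all measured genes. At 1.5-fold the counts were 1 higher and 0 lower, beside 5.98% and 6.29%.

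**Figure D1:**
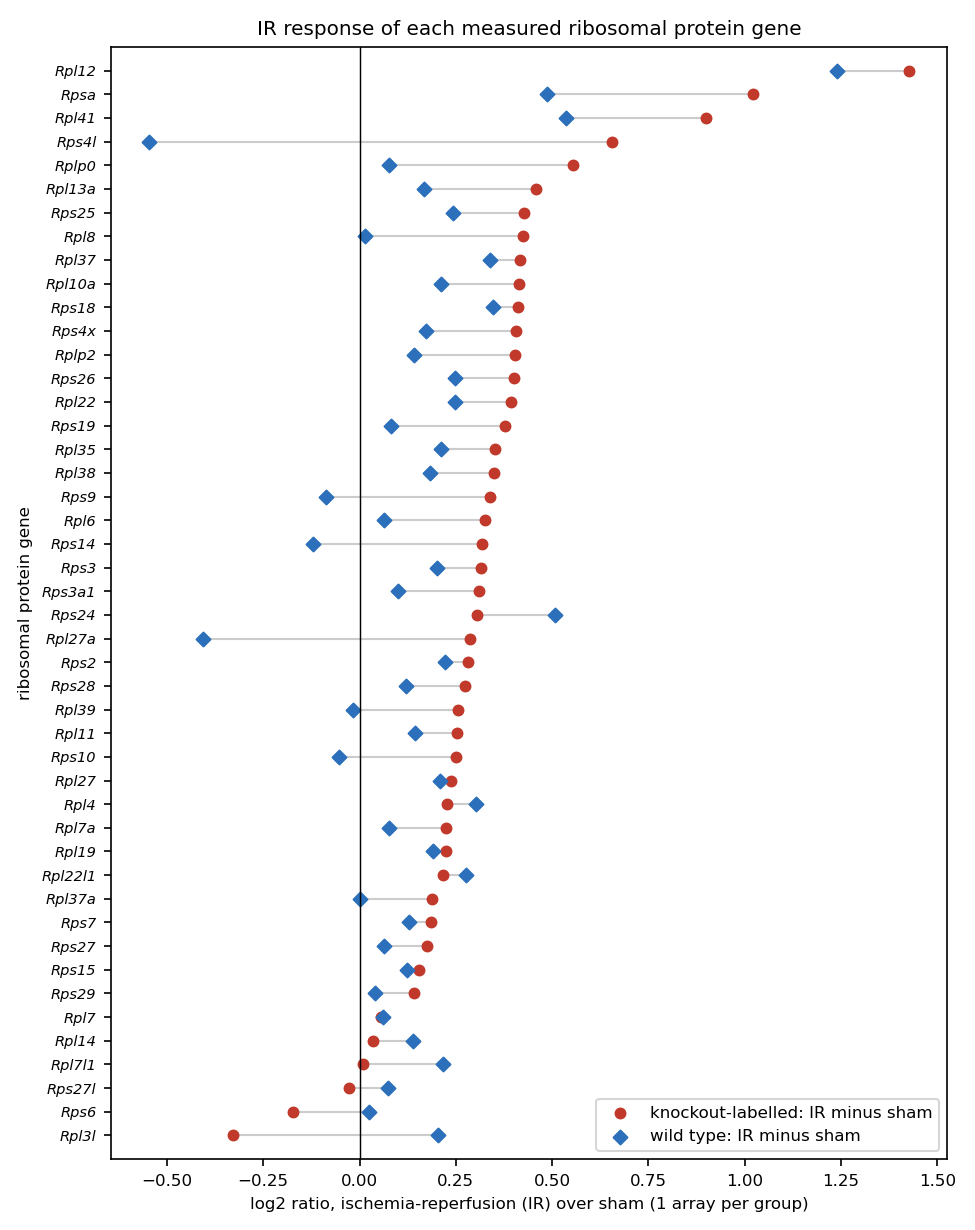
Log2 ratio of IR over sham (horizontal axis) for each of the 46 measured ribosomal protein genes (vertical axis), with 1 array per group. Red circles are the knockout-labelled pair, blue diamonds are wild type, and a grey line joins the values of a gene. Most red points lie right of both 0 and the blue point of the same gene, with Rpl12 at the top at 1.43 and 1.24.

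**Figure D2:**
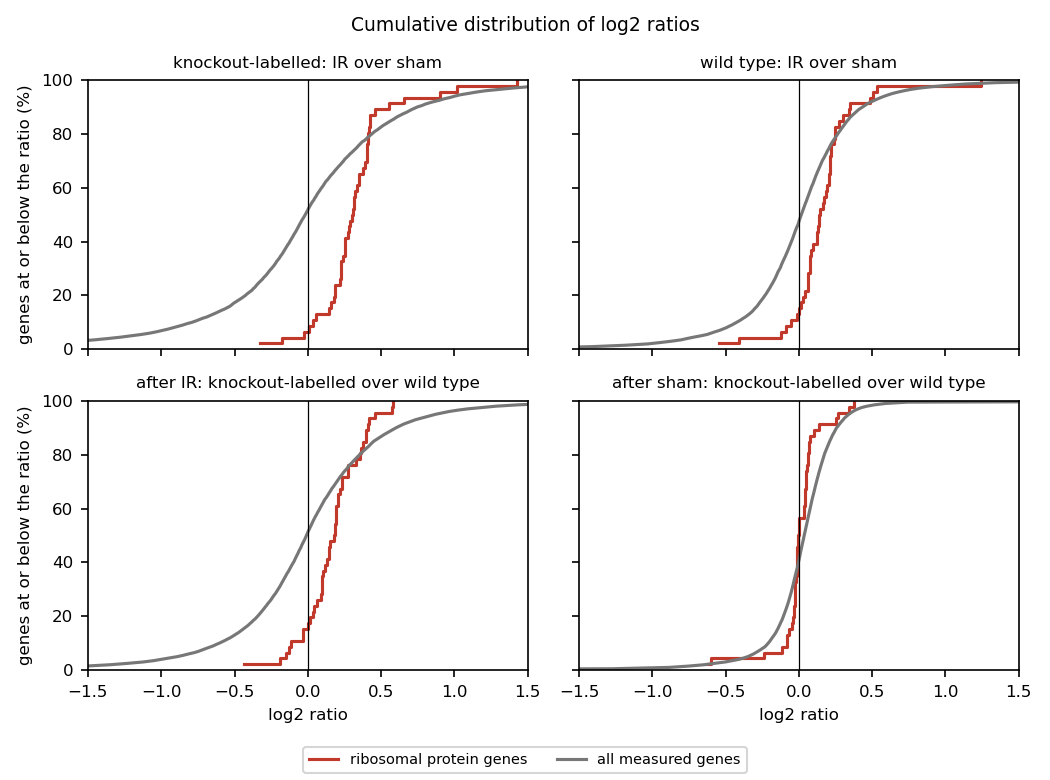
Percentage of genes (vertical axis) at or below each log2 ratio (horizontal axis) in 4 comparisons, for the 46 ribosomal protein genes (red) and all measured genes (grey). In both IR over sham panels and in the panel after IR, the red curve is steep and starts right of the grey one. It crosses the grey curve a little above the upper quartile there. In the sham panel the red curve rises close to 0.

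The largest response in each pair was that of Rpl12, a protein of the stalk, the flexible arm of the large subunit that recruits translation factors. Rpl12, which forms the base of the stalk, had log2 signals of 8.16 in knockout-labelled IR and 6.73 in knockout-labelled sham, and 7.71 in wild-type IR and 6.47 in wild-type sham. It was 2.69-fold higher after IR in the knockout-labelled pair and 2.36-fold higher in wild type, so the IR arrays were both above the sham arrays. It was read by 1 probe set of low signal. Rplp0, which anchors the stalk, had 13.43 and 12.87 in the knockout-labelled IR and sham arrays and 13.03 and 12.95 in the wild-type IR and sham arrays. Its log2 ratio was 0.55 in the knockout-labelled pair and 0.08 in wild type. Rplp2, an acidic protein of the stalk tip, had 13.94 and 13.54 in the knockout-labelled IR and sham arrays and 13.55 and 13.41 in the wild-type ones. The knockout-labelled IR array was the highest of the 4 for each of these 3 genes, as it was for most members. Rplp0 and Rplp2, at 0.55 and 0.40, were above the class median of 0.31 in the knockout-labelled pair. In wild type, at 0.08 and 0.14, they were not above the class median of 0.14.

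In the small subunit, Rpsa had the largest response of the knockout-labelled pair, while in wild type Rps24 stood just above it. Rpsa, which also acts as a laminin receptor, had log2 signals of 13.81 in knockout-labelled IR and 12.79 in knockout-labelled sham, and 13.24 in wild-type IR and 12.75 in wild-type sham. It was 2.03-fold higher in the knockout-labelled pair and 1.40-fold higher in wild type. The sham arrays lay within 0.04 of each other, below both IR arrays. The medians of the subunits were close, with 0.31 over 21 measured genes of the small subunit and 0.29 over 25 of the large subunit in the knockout-labelled pair, and 0.12 and 0.18 in wild type.

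Rpl11, which binds 5S ribosomal RNA and can hold back the p53 regulator Mdm2, was a typical member. It had log2 signals of 13.47 in knockout-labelled IR and 13.22 in knockout-labelled sham, and 13.33 in wild-type IR and 13.18 in wild-type sham, which is 0.25 and 0.14 higher after IR. Around the exit of the tunnel, 5 genes were measured (Rpl19, Rpl22, Rpl35, Rpl38 and Rpl39). All 5 were over 0 in the knockout-labelled pair, with a median of 0.35, and 4 of 5 in wild type, with a median of 0.19. On the head of the small subunit 8 of 8 measured genes were over 0 in the knockout-labelled pair (median 0.30) and 7 of 8 in wild type (median 0.12).

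A few members went against the class or stood at its edge. Rps6, the substrate of S6 kinase, had 9.25 in knockout-labelled IR and 9.42 in knockout-labelled sham, and 9.40 in wild-type IR and 9.37 in wild-type sham, so it was 0.17 lower in the first pair and 0.03 higher in the second. Rpl14 had log2 ratios of 0.04 in the knockout-labelled pair and 0.14 in wild type. In wild type the lowest members after Rps4l were Rpl27a at -0.41, Rps14 at -0.12, Rps9 at -0.09 and Rps10 at -0.05, while the highest after Rpl12 were Rpl41 at 0.54, Rps24 at 0.51, Rpsa at 0.49 and Rps18 at 0.35. Rpl27a was set apart by its wild-type sham array, with log2 signals of 9.46 in knockout-labelled IR, 9.17 in knockout-labelled sham, 9.37 in wild-type IR and 9.77 in wild-type sham. Rps6, Rpl14 and Rpl27a each had only 1 probe set over the floor. Their mean log2 signals of 9.36, 7.03 and 9.44 were far below the class median of 13.09.

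The paralogues, copies of ribosomal protein genes with restricted or inducible use, went both ways in the knockout-labelled pair. Of 5 measured, 3 were over 0, with a median of 0.01, and in wild type 4 were over 0, with a median of 0.20. Rpl3l, known from skeletal muscle and heart, had 5.95 in knockout-labelled IR and 6.28 in knockout-labelled sham, and 6.15 in wild-type IR and 5.94 in wild-type sham, all near the floor. Rps4l had 8.61 and 7.95 in the knockout-labelled IR and sham arrays, and 8.03 and 8.57 in the wild-type IR and sham arrays, so its log2 ratio was 0.66 in the first pair and -0.55 in the second. It was read by 1 probe set, of mean log2 signal 8.29. Rps27l, a p53 target, lay between 13.03 and 13.14 in the 4 arrays, with log2 ratios of -0.03 in the knockout-labelled pair and 0.07 in wild type. Rpl7l1 was 0.01 higher in the knockout-labelled pair and 0.22 higher in wild type, and Rpl22l1 was 0.22 and 0.28 higher. Without the paralogues the median over 41 genes was 0.32 in the knockout-labelled pair and 0.14 in wild type.

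**Figure D3:**
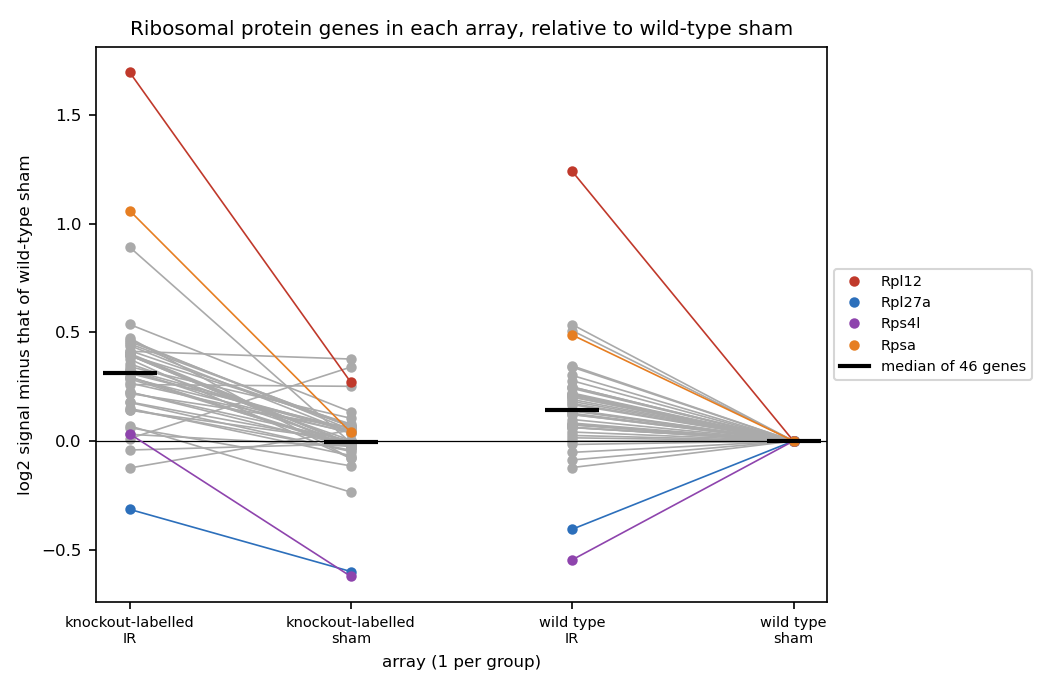
Log2 signal of each of the 46 measured ribosomal protein genes in each array (horizontal axis), minus the gene's signal in the wild-type sham array (vertical axis, so that array is at 0 by construction). Points are genes, lines join the arrays of a genotype, black bars are medians, and 4 genes named in the text are coloured. Rpl12 and Rpsa stand above the others in the knockout-labelled IR array, and Rps4l and Rpl27a lie lowest in the knockout-labelled sham array.

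Between genotypes most members were higher in the knockout-labelled array after IR, by less than 1.5-fold. The log2 ratio of knockout-labelled IR over wild-type IR was over 0 in 38 of 46 genes, where 48.8% of 13492 measured genes were, and its median was 0.18, beside -0.01 over all measured genes. No member reached 2-fold, beside 3.68% of measured genes higher and 3.99% lower, nor 1.5-fold, beside 10.6% and 10.5%. The highest were Rps4l at 0.58, Rpsa at 0.57, Rpl12 at 0.46, Rps14 at 0.42 and Rps9 at 0.41. The lowest were Rps24 at -0.44, Rpl3l at -0.19, Rps6 at -0.15, Rpl22l1 at -0.13 and Rps27l at -0.12.

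In the sham arrays 36 of 46 members (78.3%) differed by less than 0.10 on the log2 scale, beside 44.8% of all 13474 measured genes. Most of those genes are dimmer than the members. For probe sets of mean log2 signal 10 or more, the quartiles of the sham log2 ratio were -0.06 and 0.12 over all 4720. Over the 70 member probe sets of that signal they were -0.02 and 0.06. The median of knockout-labelled sham over wild-type sham was -0.00, beside 0.04 over all measured genes, and 22 of 46 members were over 0, beside 59.1% of measured genes. With each array centred on its median, 36 of 46 members (78.3%) were over 0, so the count of directions here depends on scaling. No member reached 2-fold, beside 0.186% of measured genes higher and 0.846% lower. At 1.5-fold 0 members were higher and 2 were lower, beside 1.02% and 2.43%: Rps4l at -0.62 and Rpl27a at -0.60. Next lowest were Rps24 at -0.24, Rps27 at -0.11 and Rplp0 at -0.08, and the highest were Rpl14 at 0.38, Rpl3l at 0.34, Rpl12 at 0.27, Rpl7l1 at 0.25 and Rplp2 at 0.13.

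The IR response was larger in the knockout-labelled pair for 37 of 46 members, where 46.0% of 13808 measured genes had the larger value there, and 32 of 46 (69.6%) with each array centred on its median. The difference of the responses, knockout-labelled minus wild type, had a median of 0.15, beside -0.03 over all measured genes. Only Rps4l, at 1.20, passed 2-fold higher and 0 members passed 2-fold lower, beside 4.75% and 4.77%. At 1.5-fold 2 members were higher and 0 lower, beside 11.1% and 12.5%. After Rps4l came Rpl27a at 0.69, Rpsa at 0.53, Rplp0 at 0.48 and Rps14 at 0.44. Lowest were Rpl3l at -0.53, Rpl7l1 at -0.21, Rps24 at -0.20, Rps6 at -0.20 and Rpl14 at -0.10. These 4 arrays enter all 5 comparisons, so the comparisons share arrays. The responses of the genotypes, which share none, had a Pearson correlation of 0.50 and a Spearman correlation of 0.30 across the 46 genes. Genes are not independent replicates. The correlations were 0.73 and 0.47 across the 41 genes without the paralogues. Across the 34 genes of mean log2 signal 10 or more, which leave out Rpl12 and Rpl41, they were 0.47 and 0.32.

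Counting every member probe set in place of 1 per gene gave the same direction. Of the 105 member probe sets, 94 were at or over the floor and 11 were below it in all 4 arrays. The log2 ratio was over 0 in 86 of the 94 in the knockout-labelled pair and 82 in wild type, beside 50.9% and 50.4% of all measured probe sets. It was over 0 in 81 after IR, 49 after sham and 80 for the difference of responses, beside 51.1%, 54.1% and 50.3%. A further 110 probe sets list a ribosomal protein gene beside other symbols and are no members, and of these 93 of 101 measured were over 0 in the knockout-labelled pair and 87 of 101 in wild type.

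Technical error was gauged from probe sets of the same gene. Across 17 member genes with several probe sets of mean log2 signal 10 or more, the SD between the probe sets of a gene was 0.12 in the knockout-labelled pair and 0.06 in wild type, against medians of 0.31 and 0.14 over the class. All of these bright probe sets of the gene were over 0 in 16 of the 17 genes in the knockout-labelled pair and in 14 in wild type, and the exception in the knockout-labelled pair was Rps27l, whose 3 probe sets lay between -0.17 and -0.03. With dimmer probe sets included, 67 of 20 member genes at or over the floor in both arrays, the SD was 0.28 and 0.15. Neither SD covers the difference between pools of mice, or an error shared by the probe sets of an array.

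Some members were read differently by their own probe sets. For Rpl22, which binds RNA at the surface of the large subunit, the bright probe sets were 0.39 and 0.33 higher in the knockout-labelled pair. Another, of log2 signal 7.85 in knockout-labelled IR and 9.28 in knockout-labelled sham, was 1.43 lower. In Rpl41 the log2 ratio of that pair was 0.90 on the dim probe set that stood for the gene, and 0.28 and 0.17 on bright ones with the suffix _x_at. The probe sets of Rps9 ranged from 0.34 to 1.12 in that pair and from -0.09 to 0.63 in wild type. Rps24 was read from a probe set of low signal, which gave 0.51 in wild type, while its 4 bright _x_at probe sets gave 0.07 to 0.13, and for knockout-labelled IR over wild-type IR it gave -0.44 where they gave 0.23 to 0.30, so its place among the extremes rests on that choice.

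**Figure D4:**
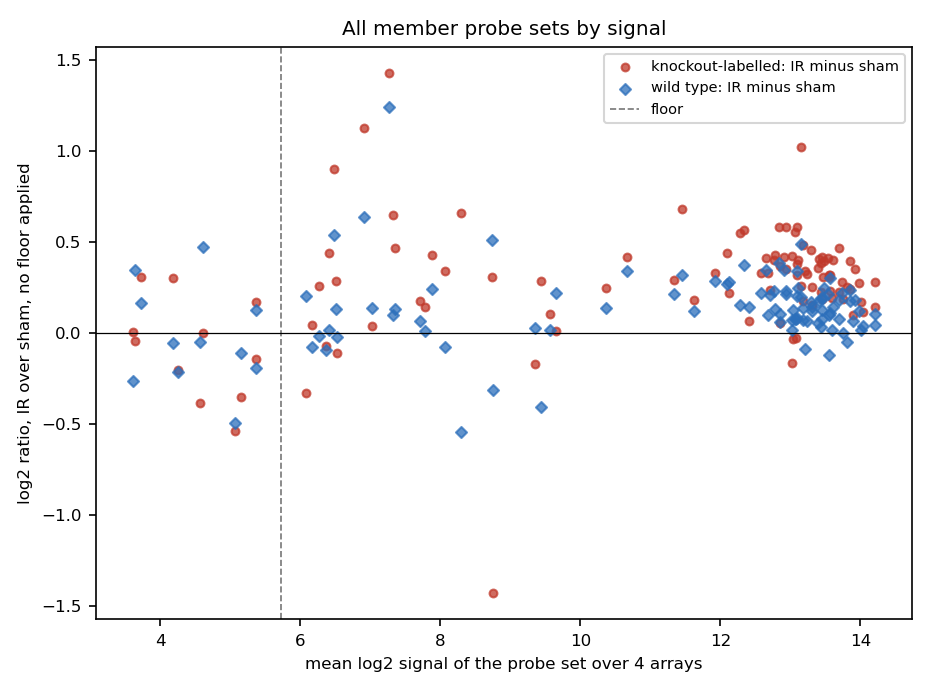
Log2 ratio of IR over sham (vertical axis, no floor applied) against mean log2 signal over 4 arrays (horizontal axis) for all 105 member probe sets, with the knockout-labelled pair as red circles, wild type as blue diamonds and the floor as a dashed line. Bright probe sets form a narrow cloud above 0, and the scatter is widest below a signal of 10, where the Rpl22 probe set at -1.43 lies.

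The class is bright on the array, with a median log2 signal of 13.09 over its genes against 7.37 over all genes, so members were set beside other bright genes. Among 195 genes with a mean log2 signal of 13 or more, 28 of them members, the median log2 ratio in the knockout-labelled pair was 0.32 for the members and -0.30 for all 195. In wild type it was 0.12 and -0.06. Another bright group lay closer to the class: all 574 _x_at probe sets of mean log2 signal 10 or more, members among them. Their medians were 0.23 in the knockout-labelled pair and 0.11 in wild type, with 65.7% and 66.7% over 0. The 70 member probe sets of that signal, of any suffix, had medians of 0.33 and 0.14, with 95.7% and 94.3% over 0. All 4720 probe sets of that signal, also of any suffix, had medians of -0.04 and 0.04, with 47.9% and 54.9% over 0. The 49 genes together held 1.82% of the summed linear signal of all probe sets in knockout-labelled IR and 1.44% in knockout-labelled sham, and 1.57% in wild-type IR and 1.44% in wild-type sham.

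Other genes of protein synthesis were read from the lists given with the members. The factors that assemble ribosomes in the nucleolus had larger medians than the ribosomal proteins. Of these, 48 of 53 were over 0 in the knockout-labelled pair, with a median of 0.56, and 51 of 53 in wild type, with a median of 0.49. Of all measured genes, 48.2% and 52.5% were over 0 in these pairs. In the knockout-labelled pair 9 of the 53 assembly factors reached 2-fold higher, beside 6.06% of all measured genes. The largest were Rrp12 at 1.43, Utp14a at 1.34, Nop58 at 1.31, Tsr1 at 1.31 and Nop56 at 1.16. In wild type only Nop56, a core protein of the particles that methylate ribosomal RNA, reached 2-fold higher, at 1.11, beside 2.06% of all measured genes. Taf1d, a subunit of the RNA polymerase I selectivity factor, was 1.55 higher in the knockout-labelled pair, where the 15 genes of that list had a median of 0.35.

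Initiation factors had medians of 0.38 in the knockout-labelled pair and 0.24 in wild type over 29 genes. Eif6, which keeps the subunits apart until the large one is mature, was the highest at 2.04 and 1.32, and Eif3d and Eif4a1 were 1.12 and 1.01 higher in the knockout-labelled pair. The list of elongation factors, which also holds Eef2k, Eef1e1 and Tpt1, had medians of 0.27 and 0.08 over 8 genes. The list for mTORC1 and pyrimidine-tract control had medians of 0.22 and -0.01 over 20 genes. It mixes parts of mTORC1 with its inhibitors, so these medians give no direction for the pathway. Within it Eif4ebp1, an inhibitor of cap-dependent initiation, was 2.93 higher in the knockout-labelled pair and 1.38 higher in wild type. Myc, a transcription factor of ribosome synthesis, was 2.57 and 2.17 higher, Eif4ebp2 was 1.04 higher in the knockout-labelled pair, and Ddit4, an inhibitor of mTORC1, had a log2 ratio of 0.40 in the knockout-labelled pair and -1.05 in wild type.

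Mitochondrial ribosomal proteins did not share the direction in the knockout-labelled pair. Of 76 genes, 21 were over 0 there with a median of -0.16, and 50 were over 0 in wild type with a median of 0.08. Of all measured genes, 48.2% and 52.5% were over 0. Proteasome subunits, which degrade proteins, were higher in both, with medians of 0.37 and 0.34 over 37 genes.

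**Figure D5:**
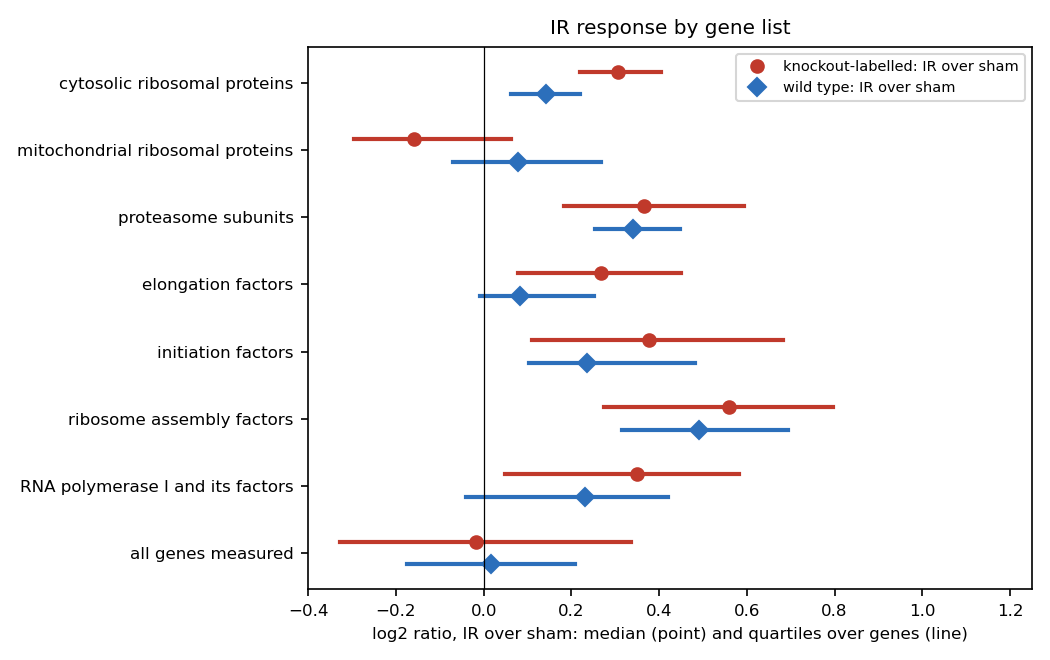
Log2 ratio of IR over sham (horizontal axis) for 8 gene groups (vertical axis), as the median over genes (point) and the quartiles over genes (line), for the knockout-labelled pair in red and wild type in blue. Cytosolic ribosomal proteins lie at 0.31 and 0.14, assembly factors at 0.56 and 0.49, and mitochondrial ribosomal proteins at -0.16 and 0.08.

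Markers of cell types moved between the same arrays. The summed linear signal of the 9 kidney markers was 41266 in knockout-labelled IR, 80895 in knockout-labelled sham, 65943 in wild-type IR and 85115 in wild-type sham. For 8 neutrophil markers it was 2354, 446, 606 and 453 in the same order of arrays, with 6, 4, 5 and 4 of 8 at or over the floor. S100a8 and S100a9, singled out after their values were seen, carried this difference, and without them the sums were 339, 345, 332 and 329. For 12 macrophage markers it was 3518, 4240, 2437 and 4265, and 1686, 4151, 1994 and 4108 without Cd14, also singled out after its values were seen. In each pair 9 of 11 measured macrophage markers had a log2 ratio under 0. For 12 lymphocyte markers the sums were 882, 1425, 923 and 1177. Adipose markers, 7 in number, summed to 1760, 288, 400 and 2563, with 5, 2, 2 and 6 at or over the floor, and 7 urothelial markers to 1073, 672, 866 and 1565. The sums of adipose and urothelial markers were thus higher after IR in the knockout-labelled pair and lower after IR in wild type. The part of these cell types in the ribosomal protein values was not tested.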

How the data were processed

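The deposited values were log2 signals, 1 column per array, and the unit was read from the values. MAS5, which summarises probe intensities, is named without a version in the submitters' processing notes; how the authors scaled the arrays is not given in the sources used here. All 4 columns were used and 0 were left out. RNA was extracted with Trizol, per the labels' protocols.

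The platform annotation gave 1 symbol for 34945 probe sets, several for 932 and none for 9160. Entrez identifiers of 34741 probe sets were found in RefSeq (GRCm38.p6), and 0 symbols differed. Each gene was read from its probe set with the highest mean log2 signal, an _x_at one only where no other existed (5 members). Low signals were floored at the 40th percentile over all arrays. Comparisons were log2 ratios, and 2-fold counted as higher or lower. With 1 array per group no p-value is given, and precision is limited by the number of arrays.

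Named were the 5 highest and 5 lowest members of each comparison, members at 2-fold, the paralogues, stalk and 5S proteins, the 3 brightest and 3 dimmest members, those whose probe sets disagreed most, and list genes at 2-fold, at most 5 each way. The members and lists were chosen with earlier results of these data known. Python 3.11.15, pandas 2.3.3, numpy 2.4.6 and statsmodels 0.14.6 were used, and the calculation was tested on simulated data. Alternatives changed the floor, the scaling, the probe set per gene, the members, the control array and the fold.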

Additional observations from a re-analysis of the deposited data

Results flagged for a closer look

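In 10 ribosomal protein genes the log2 ratio of IR over sham had opposite signs in the genotypes. That is 21.7% of the 46 measured, beside 33.1% of the 13323 genes measured in both pairs. With 1 array per group the difference was not tested. The knockout-labelled response minus the wild-type response was over 0 in 7 of them, at 1.20 for Rps4l, 0.69 for Rpl27a, 0.44 for Rps14, 0.43 for Rps9, 0.30 for Rps10, 0.27 for Rpl39 and 0.19 for Rpl37a. It was under 0 in the other 3, at -0.53 for Rpl3l, -0.20 for Rps6 and -0.10 for Rps27l. Several are among them with a log2 ratio near 0 on one side, in wild type -0.00 for Rpl37a, -0.02 for Rpl39 and 0.03 for Rps6, and in the knockout-labelled pair -0.03 for Rps27l. For Rps14, Rps9, Rps10 and Rpl37a the sign in wild type also depended on the probe set. Their other probe sets gave 0.03 for Rps14, 0.10 and 0.63 for Rps9, and 0.02 and 0.14 for Rpl37a. Those of Rps10 ranged from -0.02 to 0.15.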

How the results depend on the processing

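The median over the ribosomal protein genes kept its sign under each alternative for IR over sham in the knockout-labelled pair (0.29 to 0.50) and in wild type (0.12 to 0.21), for the genotypes after IR (0.13 to 0.27) and for the difference of responses (0.09 to 0.34), and lay between -0.02 and 0.03 after sham. Centring by a loess curve on mean signal gave the largest medians, 0.50 in the knockout-labelled pair, 0.21 in wild type and 0.34 for the difference. By construction it subtracts the level of genes of like signal, and all genes of mean log2 signal 13 or more had medians of -0.30 and -0.06 in these pairs. Centring each array on its median moved the share of members over 0 after sham to 78.3%, against 47.8% as deposited, and that of the difference to 69.6%, against 80.4% as deposited.

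The counts past 2-fold were small and moved with the setting. At 1.5-fold, 4 members were higher in the knockout-labelled pair, 2 were lower after sham and 2 were higher in the difference. A pseudocount of 64 in place of the floor left 0 higher in wild type and 0 in the difference. The sham array of the other genotype as control also left 0 higher in wild type, and leaving out the paralogues left 0 higher in the difference. Chosen after seeing the data, all member probe sets as units gave 1 lower in the knockout-labelled pair and 1 lower in the difference. The probe sets with several symbols gave 2 lower in the knockout-labelled pair, 2 lower after IR, 1 lower in the difference, and 0 higher in wild type and 0 in the difference. No paired analysis was possible because each group has 1 array. Signals below the floor limit what can be said of Rps16, Rps20 and Rpl39l.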
